A study of Homo sapiens with 6 samples.

Results

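Described here are 10 of the 58299 genes in the count table: GDF15 and 9 other ligands of the transforming growth factor beta (TGF-beta) superfamily. They are GDF15, TGFB1, TGFB2, TGFB3, INHBA, INHBE, BMP2, BMP4, BMP6 and GDF11, all found in the table. They were chosen by name with the counts and log2 changes of this same treated-against-control comparison in view, so their levels and changes are a description and carry no test. RNA was sequenced from AC16 cells, an immortal human line made by fusing adult ventricular heart cells with transformed fibroblasts and passaged here in medium with serum. The 3 control libraries came from cells in 0.1% DMSO, the vehicle, for 72 h. The 3 treated libraries came from cells given 100 nM CDDO-Me for 24 h and then 100 nM doxorubicin for 48 h, a total of 72 h. CDDO-Me (bardoxolone methyl) is a triterpenoid that releases the transcription factor NRF2, and doxorubicin is an anthracycline that damages DNA by trapping topoisomerase II. The series concerns NRF2 induction as protection from doxorubicin. Libraries with either drug alone were not analysed here, so the parts of CDDO-Me and doxorubicin cannot be told apart. The labels do not say whether CDDO-Me stayed on the cells during doxorubicin.

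The superfamily ligands are secreted dimers. TGF-beta and activin ligands bind a type II and a type I receptor kinase and lead to phosphorylated SMAD2 and SMAD3, while bone morphogenetic proteins (BMPs) act through SMAD1, SMAD5 and SMAD9, and both branches share SMAD4. TGF-beta ligands are held in a latent complex until released, and many BMPs and activins are bound by secreted antagonists. GDF15 is a distant member whose receptor is GFRAL with the co-receptor RET, found mainly in the hindbrain. GDF15 is a known target of the ATF4 and CHOP stress response, and its blood level is used as a marker of heart stress.

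Libraries held 17150259 to 20193957 counts in genes. Of 15575 genes that passed the filter on low counts, edgeR's quasi-likelihood test called 63.5% changed at a Benjamini-Hochberg adjusted p below 0.05, 32.3% higher and 31.2% lower. Levels are CPM (counts scaled to library size with TMM factors), and levels of different genes are compared only per kilobase of exon (RPKM, from the same CPM). Errors are SD over n = 3 libraries. With libraries scaled by total counts only, the median log2 change of all tested genes was 0.15 in place of 0.02. Separate cultures are not named in the labels, and the spread behind each p-value may thus be purely technical. Of 14 heart muscle markers, 13 averaged below 1 CPM: TNNI3 was at 0 in every library, and TNNT2, MYH6 and MYH7 had at most 6 counts over a group. NPPB went from 41 to 3 counts over a group and was called lower, and passed the filter on low counts only through its controls. RYR2 (29 counts), PLN (30) and ACTN2 (18) were read in treated libraries only. GATA4 was called lower, at 17.9 CPM in controls and 14.3 in treated libraries, and made up most of the summed level of these markers, which was 16.8 to 21.3 CPM in controls and 13.7 to 19.5 in treated libraries. Of 10 fibroblast markers, 9 were called lower and none higher, and their summed level was 16281 to 17648 CPM in controls and 7372 to 7790 in treated libraries. Summed endothelial markers (5 genes) were at 21.6 to 24.4 CPM in controls and 11.4 to 12.1 in treated libraries. TEK, at 20.7 and 7.01 CPM, made up most of that sum and was called lower, while PECAM1 (0.369 and 1.49 CPM) and KDR (1.07 and 1.84 CPM) were called higher and VWF (0.835 and 1.28 CPM) was not called. PECAM1 had 2, 3 and 15 control counts and passed the filter on low counts only through its treated libraries. Summed blood cell markers (4 genes) were at 1.27 to 1.49 and 3.95 to 4.95 CPM, with PTPRC called higher (log2 change 1.78). The part of these shifts in the results was not tested. In bulk RNA, fewer cells of a type and less RNA per cell cannot be told apart.

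GDF15 stood far above the other ligands after treatment. In controls it was read 86, 89 and 64 times, or 4.94, 5.38 and 3.46 CPM. In treated libraries it was read 7185, 6922 and 7133 times, or 346, 341 and 337 CPM. Every treated library lay above every control, and the 3 treated libraries differed little from each other, with a coefficient of variation of 1.41% against 21.8% in controls. Relative counting error is larger at 64 to 89 counts than at 6922 to 7185, and its part in that contrast was not tested. The fitted log2 change was 6.22 (SE 0.079), a 74.6-fold difference. Among the 10866 tested genes with a mean of at least 5 CPM its increase ranked 6 from the top, and among all 15575 it ranked 58. Per kilobase, GDF15 went from 2.20 ± 0.48 RPKM, above 38.2% of tested genes, to 163 ± 2.30 RPKM, above 99.2% of them. GDF15 is ENSG00000130513 on chromosome 19 (hg38, 18374731 to 18389176, plus strand), and none of its exon bases lie in exons of another gene in the table.

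The stretch of 250 bases before the RefSeq start of GDF15 (GRCh38.p14, chr19:18385908-18386157, plus strand) is shown because this gene had the largest log2 change of the 8 tested ligands. Capitals mark GC boxes (GGGCGG, here on either strand) and the TATA box (TATAAA).
GDF15: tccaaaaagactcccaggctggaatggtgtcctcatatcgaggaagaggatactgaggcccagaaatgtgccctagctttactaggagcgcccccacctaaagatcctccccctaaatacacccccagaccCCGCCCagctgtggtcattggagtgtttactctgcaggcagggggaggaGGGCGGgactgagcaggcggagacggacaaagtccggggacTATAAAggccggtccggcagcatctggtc
The TATA box lay 29 to 24 bases before the start and the GC boxes at 119 to 114 and 70 to 65 bases before it. Both motifs were searched on both strands in windows of 300 bases, where 11.5% of 35116 RefSeq promoters hold TATAAA and 45.0% hold GGGCGG. The GDF15 window was also searched for the C/EBP-ATF element TGATGNAA (in 3.62% of promoters), the antioxidant response element TGACNNNGC (13.3%) and the AP-1 site TGANTCA (7.71%). No match to any of these 3 was found in it, which says nothing about the factors.

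**Figure D1:**
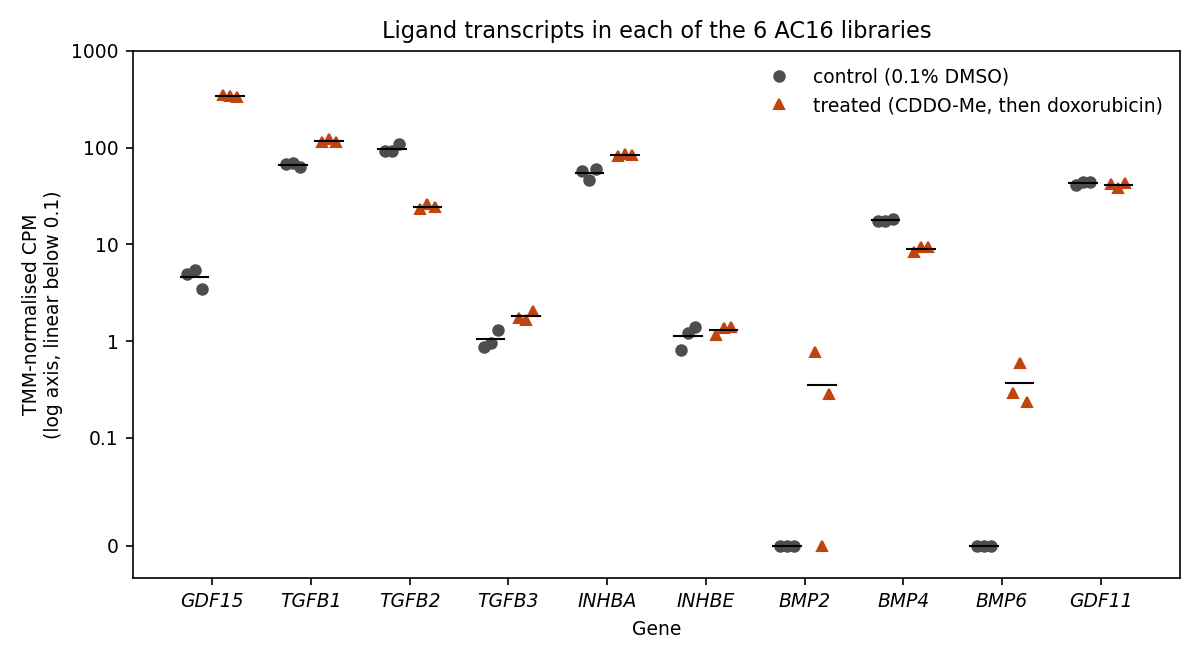
TMM-normalised CPM (vertical axis, log scale, linear below 0.1) of the 10 ligand genes (horizontal axis) in 3 control libraries (circles) and 3 treated libraries (triangles), with the group mean as a bar. GDF15 goes from 3.46 to 5.38 CPM in controls to 337 to 346 in treated libraries, TGFB2 and BMP4 lie lower after treatment, and BMP2 and BMP6 are at 0 in all controls.

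The 5 genes outside the list whose profile over the 6 libraries lay closest to that of GDF15, by Euclidean distance between centred log2 CPM among genes of at least 5 CPM, were PADI4, IL24, PTPRU, IL1RL1 and TNFRSF10C. Their distances were 0.70, 0.76, 1.06, 1.19 and 1.28. A prior count of 2 was added for the log2 CPM, which shrinks changes from few control counts. The places of PADI4 and IL1RL1 thus depend on it. With 2 groups, such a distance follows mainly the size of the change between them. IL24, a cytokine, had 84 control and 9918 treated counts. PTPRU, a receptor tyrosine phosphatase, had 14 and 1032 counts. PADI4, a peptidylarginine deiminase, had 3 control counts, and the ratio of its summed counts was 274 with a 95% counting interval of 93.5 to 1332. IL1RL1, an interleukin-33 receptor, had 4 control counts and a fitted log2 change of 7.03, or 8.27 without control replicate 1. TNFRSF10C, a decoy receptor for TRAIL, shares 39.3% of its exon bases with other genes, so its count is uncertain, and its log2 change was 5.53, or 6.15 without control replicate 1.

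The GDF15 receptor parts were rarer. GFRAL, the receptor proper, was read 0 times in the controls, which allows up to 0.0572 CPM, and 2, 4 and 4 times in the treated libraries. Those 10 counts are at least 2.81-fold above a floor of 3 counts over the control group, taking the treated counts as exact, and the 95% counting interval of the ratio began at 1.89. Genes with 0 control counts and some treated counts numbered 10211 in the table. RET, its co-receptor, had 0, 4 and 0 counts in controls and 81, 67 and 78 in treated libraries, a ratio of summed counts of 47.6 (95% counting interval 18.3 to 176). RET passed the filter on low counts only through its treated libraries. It was called higher (log2 change 5.45, SE 0.47), and all of its control counts lay in control replicate 2. Without that library the controls were at 0 and the fitted log2 change was 9.15, a value that depends on the prior count of the fit, and without control replicate 3 it was 4.86.

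The TGF-beta isoforms moved in different directions. TGFB1, the most widely made isoform, stood at 67.3, 68.6 and 63.6 CPM in controls and at 113.8, 121.4 and 113.5 CPM in treated libraries. Its treated libraries all lay above the controls, by a log2 change of 0.81 (SE 0.056). TGFB2, an isoform prominent in heart development, stood at 92.6, 91.5 and 108 CPM in controls and at 23.2, 25.9 and 24.3 CPM in treated libraries. Its treated libraries all lay below the controls, and its log2 change of -1.99 (SE 0.068) corresponds to a 3.98-fold lower level. TGFB3 was near the limit of the filter, with 15, 16 and 24 control counts and 36, 34 and 43 treated counts. Its log2 change was 0.79 with an SE of 0.32. The call of TGFB3 was lost without control replicate 1 (0.66), without control replicate 2 (0.73), without treated replicate 3 (0.70), with DESeq2, at an adjusted p of 0.01 and against a 1.5-fold change.

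Per kilobase, TGFB1 and TGFB2 were the most abundant of the 10 ligands in controls, at 20.5 ± 0.79 and 18.9 ± 1.77 RPKM, and their libraries overlapped. In treated libraries they stood apart, at 35.9 ± 1.38 and 4.75 ± 0.26 RPKM. The ratio of TGFB1 to TGFB2 RPKM within a library was 1.16, 1.19 and 0.938 in the controls and 7.80, 7.46 and 7.44 in the treated libraries. Scaling between libraries cancels in this ratio. TGFB1 (ENSG00000105329) lies on chromosome 19 (41301587 to 41353911, minus strand), TGFB2 (ENSG00000092969) on chromosome 1 (218346235 to 218444619, plus strand) and TGFB3 (ENSG00000119699) on chromosome 14 (75958099 to 75982991, minus strand). TGFB2 shares 1371 of its 5151 exon bases (26.6%) with TGFB2-OT1, a transcript on the same strand with 0 counts in all libraries. TGFB1 shares 6.64% with HNRNPUL1 on the other strand. No source used here says how reads in shared stretches were counted. TGFB2 had 1514 to 1992 counts in each control and TGFB2-OT1 had 0. Reads in the bases they share, if any, were thus not counted for both genes. RPKM divides by all exon bases of a gene. Were such reads left out, the TGFB2 level would be too low in both groups, and more so than the TGFB1 level. The order of the pair in controls is thus uncertain.

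The 250 bases before the RefSeq starts of the pair are shown because the genes moved apart. Capitals mark the same motifs as for GDF15. The TGFB1 stretch is chr19:41353923-41354172 on the minus strand and the TGFB2 stretch chr1:218345086-218345335 on the plus strand (both GRCh38.p14).
TGFB1: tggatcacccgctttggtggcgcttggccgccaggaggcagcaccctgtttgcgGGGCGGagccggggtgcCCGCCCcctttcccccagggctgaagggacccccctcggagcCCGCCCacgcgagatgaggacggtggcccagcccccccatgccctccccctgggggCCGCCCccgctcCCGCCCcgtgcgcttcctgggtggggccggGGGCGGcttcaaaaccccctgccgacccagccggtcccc
TGFB2: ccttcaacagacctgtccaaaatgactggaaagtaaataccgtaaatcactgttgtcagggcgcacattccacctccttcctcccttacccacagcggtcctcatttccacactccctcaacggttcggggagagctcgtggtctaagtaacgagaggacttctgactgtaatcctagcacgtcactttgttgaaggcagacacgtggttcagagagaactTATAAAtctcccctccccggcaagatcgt
The TGFB1 stretch held 6 GC boxes and no TATAAA, with a GC content of 76.8%. The TGFB2 stretch held TATAAA at 29 to 24 bases before the start, the same distance as in GDF15, and no GC box, with a GC content of 50.4%. Of the 10 genes, 8 had RefSeq promoters, in 11 windows; INHBE and BMP2 are named only. TATAAA was found for 5 of the 8 genes, GDF15, TGFB2, TGFB3, INHBA and GDF11, of which edgeR called 3 higher, 1 lower and 1 not at all. GGGCGG was found for 5 genes, GDF15, TGFB1, BMP4, BMP6 and GDF11, and the GC-rich SMAD element GGCGCC (in 19.2% of promoters) for 1, BMP4, where 1 match adjoins a GC box and shares a base with it. The antioxidant response element was found for 1 gene, GDF11, at 100 to 92 bases before its start. The C/EBP-ATF element, the AP-1 site and the SMAD box GTCTAGAC (in 0.202% of promoters) were found for 0 of the 8 genes. A match of letters is a description and shows no binding.

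Activin subunits also differed. INHBA encodes the subunit of activin A and stood at 57.0, 45.9 and 60.3 CPM in controls and at 82.2, 86.6 and 83.1 CPM in treated libraries. All treated libraries were higher, by a log2 change of 0.62 (SE 0.065). INHBE, the activin E subunit best known from liver, was low throughout, at 0.804, 1.21 and 1.41 CPM in controls and 1.16, 1.38 and 1.42 CPM in treated libraries. Its groups overlapped, and its log2 change was 0.20 with a normal 95% interval from -0.46 to 0.87, so changes of either sign within it could not be told apart at 60 control and 82 treated counts. INHBA (ENSG00000122641) lies on chromosome 7 (41667168 to 41705834, minus strand) and INHBE (ENSG00000139269) on chromosome 12 (57452323 to 57459280, plus strand).

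INHBB, the subunit of activin B, is outside the 10 genes and was tested. It fell from 11.5 ± 0.86 to 1.95 ± 0.46 CPM (log2 change -2.56, SE 0.17; edgeR adjusted p = 5.78e-21). The ratio of INHBA to INHBB RPKM within a library was 1.90, 1.44 and 2.19 in controls and 21.3, 13.9 and 16.6 in treated libraries, with no overlap between the groups.

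Of BMP2, BMP4 and BMP6, BMP4 was the most abundant. It stood at 17.3, 17.5 and 18.4 CPM in controls and at 8.38, 9.30 and 9.34 CPM in treated libraries. All treated libraries lay below the controls, by a log2 change of -0.98 (SE 0.11). BMP2 had 0 counts in each control and 16, 0 and 6 counts in the treated libraries, so 1 treated library matched the controls. BMP6 had 0 counts in each control and 6, 12 and 5 in the treated libraries. Against a floor of 3 counts over the control group, BMP2 was at least 6.17-fold higher and BMP6 at least 6.45-fold higher, at levels below 1 CPM. Those values take the treated counts as exact. The 95% counting interval of the ratio, which also covers the error of the treated counts, began lower, at 4.61 for BMP2 and 4.84 for BMP6. Of the 22 treated counts of BMP2, 16 came from treated replicate 1.

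Neither BMP2 nor BMP6 passed the filter on low counts. Of 32505 genes with 0 counts in the 3 controls, 10211 had at least 1 count in the treated libraries and 290 at least 20. In the reverse direction, 1225 genes with 0 treated counts had at least 1 control count and 0 had at least 20. BMP5, another BMP gene, which was chosen for mention after its values were seen, was among the 290 with 0 and 22 counts. BMP4 (ENSG00000125378) lies on chromosome 14 (53949736 to 53958761, minus strand), BMP2 (ENSG00000125845) on chromosome 20 (6767664 to 6780280, plus strand) and BMP6 (ENSG00000153162) on chromosome 6 (7726797 to 7881422, plus strand).

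GDF11, the close relative of myostatin, had the log2 change nearest to 0 of the 8 tested ligands. It stood at 41.0, 44.4 and 43.7 CPM in controls and at 42.3, 38.6 and 43.1 CPM in treated libraries. The groups overlapped, and the log2 change was -0.06 (SE 0.069) with a normal 95% interval from -0.19 to 0.08. With libraries scaled by total counts only it was 0.07. GDF11 (ENSG00000135414) lies on chromosome 12 (55743280 to 55757278, plus strand) and shares 4.46% of its exon bases with SARNP on the other strand.

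In all, 8 of the 10 genes were tested, and edgeR called 6, against 63.5% of all tested genes. It called 4 higher (GDF15, TGFB1, TGFB3 and INHBA), where 32.3% of all tested genes were called higher. It called 2 lower (TGFB2 and BMP4), where 31.2% of all tested genes were. The other two, INHBE and GDF11, were not called. GDF15 was the only 1 of the 8 called and at least 2-fold higher (10.9% of all tested genes were). TGFB2 was the only 1 called and at least 2-fold lower (4.62% of all tested genes were), with BMP4 just short of that mark at a log2 change of -0.98. Against a 1.5-fold change instead of no change, glmTreat called 4 of the 8, GDF15, TGFB1, TGFB2 and BMP4, and 19.2% of all tested genes. The groups did not overlap in 6 of the 8, and in 66.7% of all tested genes. The median log2 change of the 8 was 0.41, and of all tested genes 0.02. The 10 genes were proposed with this comparison in view, and nothing is read from these counts.

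**Figure D2:**
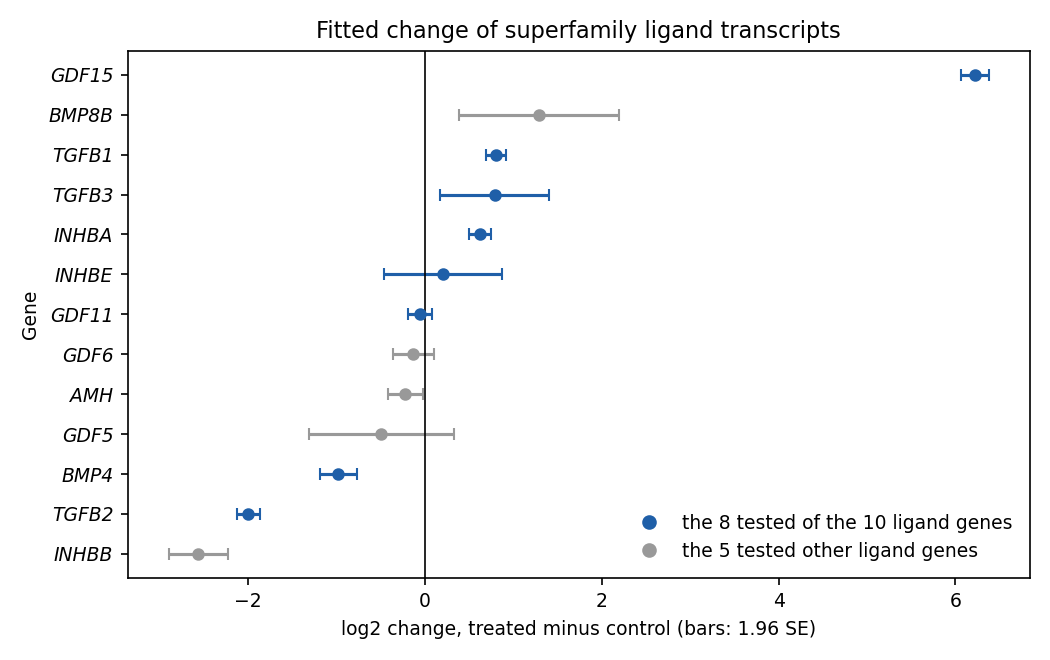
Fitted log2 change, treated minus control (horizontal axis, bars are normal 95% intervals), of the 8 tested genes of the 10 (blue) and of the 5 other ligand genes that were tested (grey). GDF15 at 6.22 stands apart from all others, and INHBB (-2.56), TGFB2 (-1.99) and BMP4 (-0.98) lie to the left of 0.

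The order of the levels per kilobase was rearranged. In controls it ran from TGFB1 and TGFB2 over INHBA (6.55 ± 0.90 RPKM), BMP4 (5.75 ± 0.18), GDF11 (4.97 ± 0.21) and GDF15 (2.20 ± 0.48) to INHBE (0.378 ± 0.10) and TGFB3 (0.212 ± 0.046), with BMP2 and BMP6 at 0. Of the neighbours in this order, TGFB1 and TGFB2 overlapped, and so did INHBA and BMP4. In treated libraries it ran from GDF15 over TGFB1 and INHBA (10.1 ± 0.28 RPKM) to GDF11 (4.78 ± 0.28) and TGFB2, which overlapped, and then to BMP4 (2.92 ± 0.18). INHBE (0.437 ± 0.046) and TGFB3 (0.369 ± 0.039) overlapped, as did BMP6 (0.134 ± 0.069) and BMP2 (0.0976 ± 0.11). The place of TGFB2 in both orders is uncertain, since reads in its shared exon bases may have been left out.

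Over 33 superfamily ligand genes, the summed level was 74.4 ± 1.55 RPKM in controls and 234 ± 2.70 RPKM in treated libraries. Without GDF15 it was 72.2 ± 2.03 and 70.5 ± 2.89 RPKM. GDF15 made up 2.97 ± 0.70% of the sum in controls and 69.9 ± 1.03% in treated libraries. TGFB1 made up 27.6 ± 1.63% and 15.3 ± 0.43%, and TGFB2 25.4 ± 1.84% and 2.03 ± 0.10%. The TGFB2 share is uncertain for the same reason as its place in the order. A share of a sum moves with every other gene in it, so the lower share of TGFB1 stands beside a higher level.

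**Figure D3:**
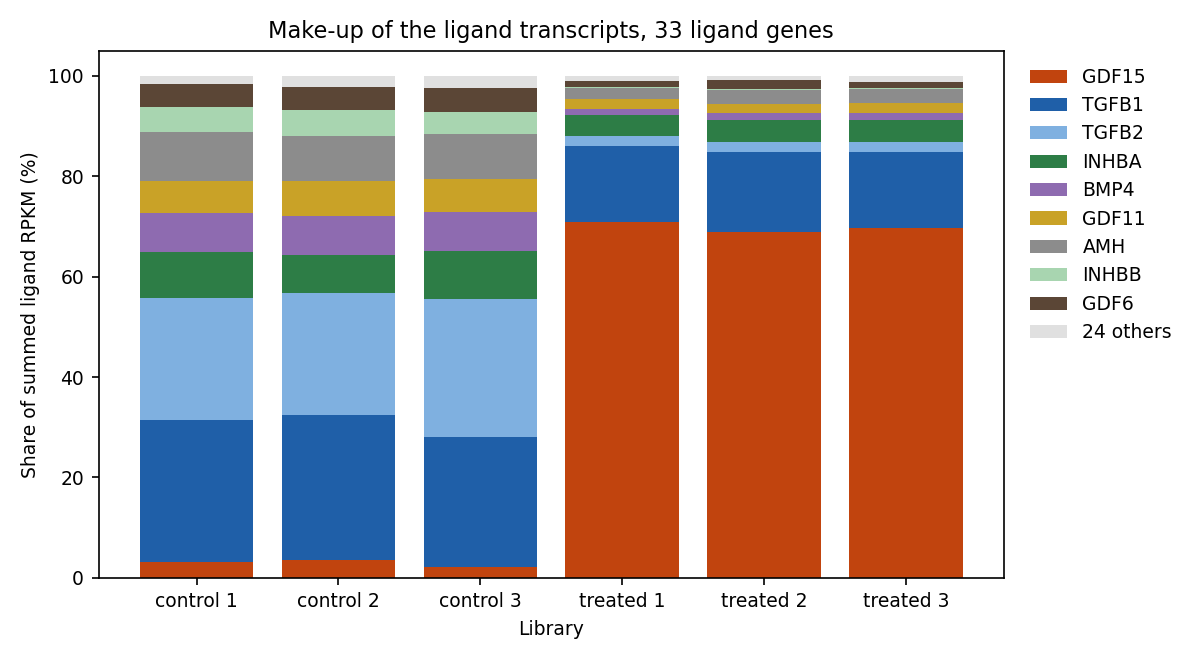
Share of the summed RPKM of 33 superfamily ligand genes (vertical axis, percent) in each library (horizontal axis), stacked by gene, with 24 genes of small share drawn together. In controls TGFB1 and TGFB2 fill the largest parts, and in the treated libraries GDF15 makes up 69.9 ± 1.03%.

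Of 23 other ligand genes, 18 did not pass the filter on low counts and 5 did, of which 1 rose (BMP8B, from 18 to 53 counts), 1 fell (INHBB) and 3 were not called. Their median log2 change was -0.22. BMP8B had 6 counts in each control and passed the filter on low counts only through its treated libraries. Its call (log2 change 1.29) was lost at an adjusted p of 0.01, and the gene did not pass a filter of 1 CPM in 3 libraries. BMP8B is a near-identical copy of BMP8A, so reads may be split between them. AMH, the anti-Müllerian hormone gene, stood at 17.7 ± 1.08 and 15.2 ± 1.74 CPM (log2 change -0.22, SE 0.10; edgeR adjusted p = 0.0539). It was called lower without control replicate 2 (-0.27, edgeR adjusted p = 0.0328) and without treated replicate 2 (-0.28, edgeR adjusted p = 0.0277). GDF6, a BMP-type ligand, stood at 12.9 ± 0.81 and 11.8 ± 2.42 CPM (log2 change -0.13, SE 0.12; edgeR adjusted p = 0.337). It was called lower without treated replicate 2 (-0.32, edgeR adjusted p = 0.0275).

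Other genes of the pathway were taken in 8 lists by role, 121 genes of which 90 were tested. Of these 90, edgeR called 72, 27 higher and 45 lower. The lists overlap in a few genes, were not tested as sets, and are described beside the background of 32.3% higher and 31.2% lower among all tested genes, whose median log2 change was 0.02.

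Receptors changed in both directions, with 6 of 16 tested higher, 7 lower and a median log2 change of 0.07. With total counts only 8 were higher and 5 lower, and with upper-quartile scaling 7 were higher and 6 lower. Without control replicate 1, 7 were higher and 5 lower. Among those averaging at least 1 CPM, the largest log2 changes were in RET and in rare type I receptors. ACVR1C, which binds activin and nodal-type ligands, rose from 0.773 ± 0.27 to 3.74 ± 0.68 CPM (log2 change 2.25, SE 0.29; edgeR adjusted p = 4.04e-10). BMPR1B, a BMP receptor, rose from 0.678 ± 0.25 to 1.80 ± 0.24 CPM (log2 change 1.39, SE 0.36). It had 12, 7 and 17 control counts and passed the filter on low counts only through its treated libraries. RGMA, another of the 6 called higher, had 3, 0 and 0 control counts and passed the filter in the same way. TGFBR1, the type I receptor of TGF-beta, rose from 89.8 ± 5.74 to 117 ± 5.61 CPM (log2 change 0.38, SE 0.055; edgeR adjusted p = 2.02e-08). TGFBR2, its type II partner, stood at 96.1 ± 5.94 and 104 ± 4.59 CPM (log2 change 0.11, edgeR adjusted p = 0.0707). It was called higher without control replicate 1 (0.14), without treated replicate 1 (0.15), with a filter of 1 CPM (0.13), with upper-quartile scaling (0.17) and with total counts only (0.24).

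BMPR2, the type II BMP receptor, fell from 109 ± 10.7 to 76.2 ± 3.47 CPM (log2 change -0.52, SE 0.059; edgeR adjusted p = 9.47e-12). ACVR2A, which binds activins and some BMPs, fell from 15.9 ± 1.28 to 11.1 ± 1.66 CPM (log2 change -0.52, SE 0.11; edgeR adjusted p = 4.86e-05). ACVR1B, the activin type I receptor, was called lower (60.5 ± 2.82 to 54.0 ± 4.33 CPM, log2 change -0.17; edgeR adjusted p = 0.0212). That call was lost without control replicate 1 (-0.13), treated replicate 1 (-0.13) or treated replicate 3 (-0.13), with upper-quartile scaling (-0.11) and with total counts only (-0.04).

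Of 14 tested genes that hold, process or release the ligands, 7 fell and 3 rose, with a median log2 change of -0.19. With total counts only, and likewise without control replicate 1, 5 rose. FBN1, the fibrillin that anchors latent TGF-beta in the matrix, fell from 1326 ± 110 to 516 ± 31.4 CPM (log2 change -1.36, SE 0.050; edgeR adjusted p = 8.63e-34). LRRC32, a membrane anchor of latent TGF-beta, fell from 19.1 ± 0.44 to 7.87 ± 1.36 CPM (-1.28, SE 0.11). LTBP2, a matrix protein of the latent TGF-beta binding family, rose from 19.8 ± 2.15 to 48.3 ± 2.55 CPM (log2 change 1.28, SE 0.079; edgeR adjusted p = 2.70e-22). FURIN, a protease that cuts the ligand precursors, stood at 57.0 ± 4.11 and 58.1 ± 2.72 CPM (log2 change 0.03, edgeR adjusted p = 0.717) and was called higher with total counts only (0.16). The fibroblast markers, summed above, were lower in the same libraries, and their part in these matrix genes was not tested.

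Antagonists were lower in 7 of 12 tested and higher in 2, with a median log2 change of -0.41. CHRDL1, a secreted BMP antagonist, fell from 6.90 ± 0.32 to 1.38 ± 0.22 CPM (log2 change -2.32, SE 0.21; edgeR adjusted p = 1.56e-15). FSTL1, a follistatin-like protein, fell from 2322 ± 91.7 to 1043 ± 1.90 CPM (-1.15, SE 0.044). DCN, decorin, which binds TGF-beta and is also 1 of the fibroblast markers, fell from 59.9 ± 6.53 to 29.1 ± 0.60 CPM (-1.04, SE 0.072). FST, follistatin, which neutralises activins, rose from 88.4 ± 3.04 to 105 ± 3.76 CPM (log2 change 0.25, SE 0.054; edgeR adjusted p = 6.03e-05), in the same libraries in which INHBA was higher.

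Among SMADs and their cofactors, 10 of 15 fell and 3 rose with TMM, while with total counts only 5 fell and 3 rose. The median log2 change with TMM was -0.22. SMAD3 fell from 173 ± 3.78 to 96.8 ± 2.33 CPM (log2 change -0.83, SE 0.051; edgeR adjusted p = 1.38e-22). SMAD2 (-0.15, edgeR adjusted p = 0.0223) and SMAD4 (-0.18, edgeR adjusted p = 0.00533) were lower by small amounts, and neither was called with total counts only (-0.02 and -0.05). SMAD2 was also not called without control replicate 3 (-0.12), without treated replicate 2 (-0.12) or with upper-quartile scaling (-0.10). SMAD6, an inhibitory SMAD of the BMP branch, fell from 9.13 ± 0.34 to 1.44 ± 0.37 CPM (log2 change -2.65, SE 0.19; edgeR adjusted p = 2.80e-19). The SMAD corepressor genes TGIF1 and TGIF2 went apart, TGIF1 rising from 35.3 ± 2.53 to 69.6 ± 4.67 CPM (0.98, SE 0.067) and TGIF2 falling from 11.1 ± 2.39 to 4.47 ± 0.99 CPM (-1.30, SE 0.15).

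**Figure D4:**
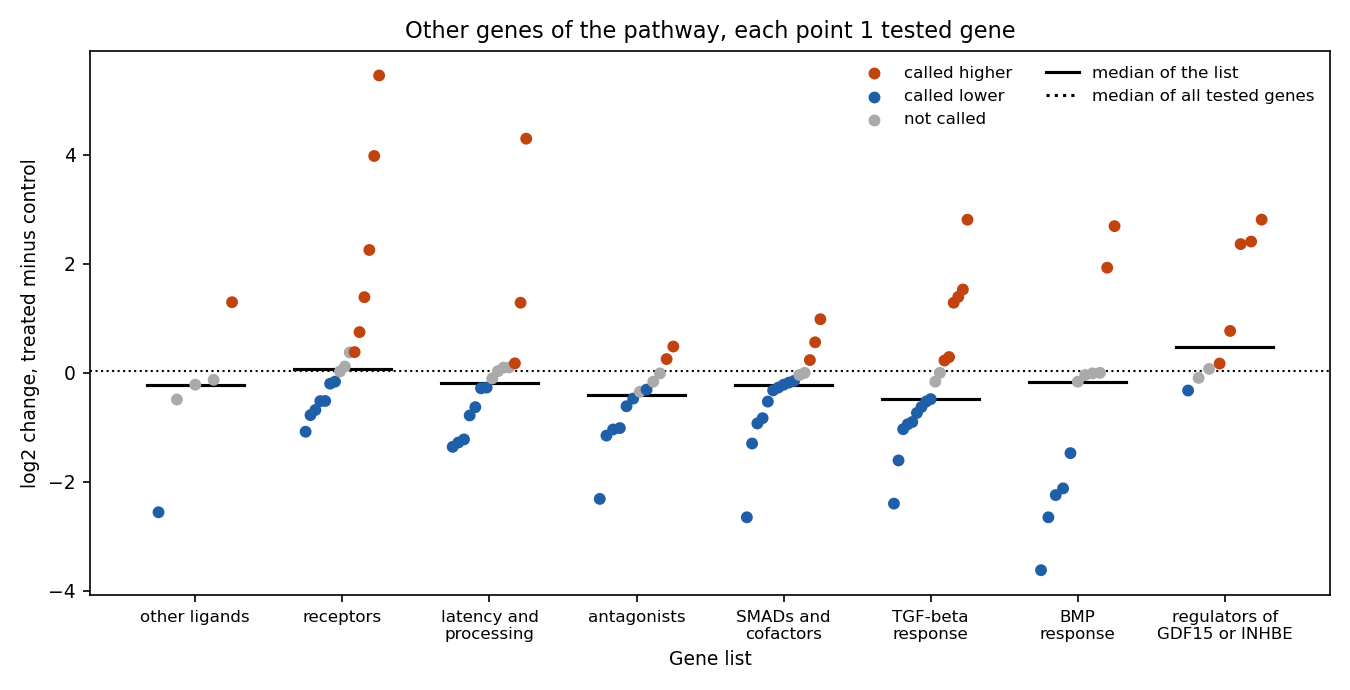
log2 change, treated minus control (vertical axis), of each tested gene in 8 lists of other pathway genes (horizontal axis), coloured by edgeR call, with the median of each list (bar) and of all tested genes (dotted line, 0.02). The 5 BMP response genes that fell lie below -1, and points above and below 0 occur in every list.

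Genes known to respond to TGF-beta or activin went both ways, 9 of 17 lower and 6 higher, with a median log2 change of -0.48. TAGLN, a smooth-muscle actin-binding protein, fell from 222 ± 10.1 to 42.0 ± 3.25 CPM (log2 change -2.40, SE 0.057; edgeR adjusted p = 1.22e-43). ACTA2, smooth-muscle actin, rose from 9.61 ± 0.62 to 67.4 ± 2.33 CPM (log2 change 2.81, SE 0.082; edgeR adjusted p = 5.65e-39), but 30.1% of its exon bases lie in exons of other genes and the libraries keep no strand. COL1A1, a main fibrillar collagen and also a fibroblast marker, had a log2 change of -1.61 (SE 0.048). These genes respond to other signals too, and TGF-beta activity was not measured.

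BMP response genes were lower in 5 of 11 and higher in 2, with a median of -0.17. The 5 that fell each did so by at least 2-fold: ATOH8, ID1, ID2, ID3 and SMAD6. The 2 called higher, HEY1 (log2 change 2.69) and ID4 (1.93), also moved by at least 2-fold. ID4 did not pass a filter of 1 CPM in 3 libraries. ATOH8, a transcription factor, fell from 39.5 ± 5.14 to 3.19 ± 0.50 CPM (log2 change -3.62), and ID3, an inhibitor of DNA binding, from 117 ± 9.81 to 24.7 ± 2.09 CPM (-2.25, SE 0.067; edgeR adjusted p = 2.51e-38). BAMBI (-0.01), NOG (-0.17), SMAD7 (-0.0031) and SMAD9 (-0.04), given as log2 changes, were not called. With total counts only, BAMBI (0.12), SMAD7 (0.12) and SMAD9 (0.08) had the opposite sign and were not called either. BMP4 was lower in the same libraries. BMP activity was not measured, and a link of BMP4 to these genes was not tested.

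Of 8 transcription regulators known to act on GDF15 or INHBE, edgeR called 5 higher and 1 lower, and the median log2 change was 0.47. DDIT3, which encodes CHOP, rose from 9.71 ± 0.80 to 67.9 ± 4.63 CPM (log2 change 2.81, SE 0.084; edgeR adjusted p = 1.61e-38), with 39.6% of its exon bases in exons of other genes. KLF4 rose from 7.25 ± 1.08 to 38.4 ± 1.15 CPM (2.41, SE 0.099) and ATF3 by 2.36 (SE 0.069) on the log2 scale. ATF4 rose slightly (492 ± 18.8 to 553 ± 22.5 CPM, log2 change 0.17, SE 0.046; edgeR adjusted p = 0.00120). NFE2L2, which encodes NRF2, stood at 129 ± 1.24 and 136 ± 2.74 CPM (log2 change 0.07, edgeR adjusted p = 0.231), and was called higher with upper-quartile scaling (0.12) and with total counts only (0.20).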

How the data were processed

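Polyadenylated RNA from 6 AC16 samples was sequenced from unstranded TruSeq libraries, per the labels' protocols. A single table of whole read counts per gene was deposited, with each gene's exon length in bases as a further column (per the file headers). Alignment and counting tools named by the submitters' processing notes are STAR, SAMtools and featureCounts of Subread, on hg38 (GRCh38). Their versions, options and annotation release are not given in the sources used here. Gene names came from a reference list by Ensembl identifier, and from a GENCODE 29 annotation for identifiers absent from that list. GENCODE 29 held 58179 of the 58299 identifiers, 57438 of them with the same start and end.

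Genes were filtered with filterByExpr (minimum count 10) and tested with edgeR 4.0.16 in R 4.3.3 by the quasi-likelihood test on all 3 control and 3 treated libraries, with TMM factors, no covariate and Benjamini-Hochberg adjustment over 15575 genes (threshold 0.05). SE values come from the fitted coefficients, and CPM and RPKM were computed from the counts and the deposited lengths. Ratios of summed counts have 95% exact intervals, which cover counting error only, and the floor for a count of 0 was 3 counts over the group. The scripts were tested on simulated data. The 10 genes and the pathway lists were chosen with earlier results of these data known. From each list the text names the 3 genes averaging at least 1 CPM with the largest log2 change in size and a set of core pathway genes chosen by name; any further name was picked with its values known. Same-numbered libraries were not treated as pairs in the main test. The correlations of deviations between them were -0.022, -0.0071 and -0.0072, which cannot show how the cultures were handled. Other settings tried were scaling by RLE, upper quartile or total counts, no filter and 1 CPM in 3 libraries, DESeq2 1.42.0, limma-voom (limma 3.58.1), an adjusted p of 0.01, glmTreat against 1.5-fold, a replicate block and leaving out each library. Promoters of 8 genes (11 windows of 250 bases before and 50 after the start) came from RefSeq (GRCh38.p14). One item of the regulator list and of the motif search is not reported here.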

Additional observations from a re-analysis of the deposited data

How the results depend on the processing

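Of all genes, 9893 were called, of the 10 ligands 6 and of the other pathway genes 72. Leaving out each library in turn gave 9283 to 9695, 5 to 6 and 70 to 75 calls. With glmTreat against a 1.5-fold change, 2993 genes were called, fewer by construction, and 4 of the ligands. With the replicate block the counts were 9653, 6 and 72, and the block changed no call of a ligand. Calls of all genes were 50.8% higher ones with TMM and 63.8% with total counts only, 56.4% with upper-quartile factors and 61.9% with glmTreat. Over the scalings, filters, tools, the block and the left-out libraries that were run, the log2 change was 6.04 to 6.35 for GDF15, 0.76 to 0.93 for TGFB1, -2.05 to -1.87 for TGFB2, 0.51 to 0.75 for INHBA and -1.005 to -0.85 for BMP4. None of these 5 changed sign or lost its call, except INHBA, which lost its call with glmTreat. Without the filter, BMP2 and BMP6 were called too, at 22 and 23 treated counts against 0. Depth limits TGFB3, INHBE, BMP2 and BMP6, whose libraries held at most 43 counts each.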
